A study of Mus musculus with 16 samples.

Results

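Transcripts of 10 enzymes of glycolysis were followed in B1b cells and aortas: the hexokinases Hk1 and Hk2, the phosphofructokinase subunits Pfkl and Pfkm, the aldolases Aldoa and Aldoc, the triose phosphate isomerase Tpi1, the phosphoglycerate kinase Pgk1, and the lactate dehydrogenase subunits Ldha and Ldhb. The 10 genes were chosen by name as enzymes of the pathway, with 4 isozyme pairs among them, out of 24562 entries of 1 row per gene, of which 24445 were named genes. Gene expression had been measured by RNA sequencing in 16 libraries from mice of the ApoE-/- strain, which lack apolipoprotein E and are prone to atherosclerosis. The groups were 3 libraries of B1b cells labelled cre, 3 of B1b cells labelled wt (here wild type), 5 of whole aorta labelled cre and 5 of whole aorta labelled wt. According to the series, the mice labelled cre lack CD40, a costimulatory receptor, in B cells, and the question was what that deficiency does to B1b cells and to the aorta. B1b cells, innate-like B cells of the body cavities, had been sorted from peritoneal lavage by surface markers, without a stimulus being named. Every group, wild type included, carried the ApoE-/- strain background. The labels name neither the promoter that drives Cre nor the age, sex, diet or pooling of the mice.

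Glycolysis splits glucose into pyruvate in the cytosol and yields ATP and NADH, and lactate dehydrogenase restores the NAD that the pathway consumes. Several steps are carried out by isozymes from separate genes, which tissues use in different mixtures: Hk1 is the broadly expressed hexokinase and Hk2 that of insulin-responsive muscle and fat and of growing cells, Pfkl and Pfkm are named for liver and muscle, Aldoa and Aldoc for muscle and brain, and Ldha and Ldhb make up the muscle and heart forms of lactate dehydrogenase. Resting lymphocytes take up little glucose and raise glycolysis when activated, while the contractile cells of the vessel wall use glucose, lactate and fatty acids.

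Many genes of glycolysis are targets of the hypoxia-inducible factors, which bind the cores ACGTG and GCGTG, and of Myc, which binds CACGTG. The 250 bases upstream of the annotated start are shown for the hexokinase and lactate dehydrogenase pairs. In these, 1 member was at similar levels in both tissues or abundant in both, and the other was low in B1b cells. The phosphofructokinase pair, with a pattern of that kind, is not shown. Sequences are from RefSeq (GRCm38.p6), 5′ to 3′ on the gene's strand, and capitals mark ACGTG or GCGTG on either strand (CACGT and CACGC on the other).

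Ldha, upstream start, chr7:46845554-46845803, plus strand: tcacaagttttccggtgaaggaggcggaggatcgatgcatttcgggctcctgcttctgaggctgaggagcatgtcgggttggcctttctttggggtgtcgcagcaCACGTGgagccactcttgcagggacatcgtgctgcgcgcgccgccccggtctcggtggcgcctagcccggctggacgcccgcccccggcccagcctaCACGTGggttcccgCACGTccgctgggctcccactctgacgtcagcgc
Ldha, downstream start, chr7:46846832-46847081, plus strand: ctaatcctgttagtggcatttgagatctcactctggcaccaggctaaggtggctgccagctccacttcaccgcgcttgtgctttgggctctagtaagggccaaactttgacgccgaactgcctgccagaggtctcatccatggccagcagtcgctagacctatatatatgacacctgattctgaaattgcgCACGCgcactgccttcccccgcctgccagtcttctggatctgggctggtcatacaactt
Ldhb, chr6:142507958-142508207, minus strand: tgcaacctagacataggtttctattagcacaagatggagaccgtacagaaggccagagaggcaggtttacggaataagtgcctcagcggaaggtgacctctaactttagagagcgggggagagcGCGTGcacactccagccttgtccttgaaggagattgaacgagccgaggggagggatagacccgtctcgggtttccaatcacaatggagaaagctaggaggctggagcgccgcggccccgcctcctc
Hk1, start nearest to the counted transcript, chr10:62379909-62380158, minus strand: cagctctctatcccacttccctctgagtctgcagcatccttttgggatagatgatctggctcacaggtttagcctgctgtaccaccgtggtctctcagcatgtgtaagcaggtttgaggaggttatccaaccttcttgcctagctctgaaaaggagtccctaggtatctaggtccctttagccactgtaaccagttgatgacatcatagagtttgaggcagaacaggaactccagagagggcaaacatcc
Hk2, chr6:82774455-82774704, minus strand: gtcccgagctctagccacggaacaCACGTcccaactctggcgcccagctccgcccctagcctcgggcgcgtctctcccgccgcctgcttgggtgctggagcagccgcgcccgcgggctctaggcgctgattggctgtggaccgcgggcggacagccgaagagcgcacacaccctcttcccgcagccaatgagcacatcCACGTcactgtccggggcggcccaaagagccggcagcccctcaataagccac

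The upstream window of Ldha held 5 matches to ACGTG, counted on both strands, so that each CACGTG counts on either strand. Hk2 had 2, and Ldhb and the windows of Hk1 had 0. For GCGTG, the window of Hk1 that is shown held 0 matches, and its other window, chr10:62340422-62340671, held 3. The 2 transcript rows of Hk1 had 12309 and 12259 counts in all, so the counts do not tell its starts apart. Among the windows not shown, the one nearest to the counted transcript of Pfkm held 2 and that of Pfkl held 0. Of the 18 windows listed for the 10 genes, 7 (38.9%) held ACGTG, against 16.6% of all 32851 promoter windows. By gene, 5 of the 10 had it in at least 1 window, against 18.5% of all 27025 genes with a window, which differ in their number of windows. GCGTG was found in 8 of the 18 windows and in 28.2% of all windows. Some of the 18 windows overlap each other. These are matches of letters, and binding was not measured.

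The libraries held 6815829 to 9911226 counts in B1b cells and 1645926 to 7300894 in aortas, with 2 aortas (cre replicate 2 and wild type replicate 5) under 2000000. The labels do not say that the libraries of a group came from separate animals, so the p-values measure the spread between these libraries. Cd40, the targeted gene, was at 30.7, 29.5 and 38.4 CPM in cre B1b cells and at 39.1, 34.3 and 37.5 CPM in wild-type B1b cells. It was not lower in cre beyond that spread (log2 fold change -0.16, SE 0.14, edgeR quasi-likelihood adjusted p = 0.679), and since the deleted part of the gene is not named, this value does not check the labels. Markers matched the tissue labels: 6 B cell genes summed to 6580 to 7180 CPM in B1b cells and 62.3 to 126 CPM in aortas, and 8 smooth muscle genes to 13.9 to 24.5 CPM in B1b cells and 9340 to 24200 CPM in aortas. In whole aortas, fewer cells of a type and less RNA per cell cannot be told apart.

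Compared per kilobase of transcript, Aldoa was the most abundant of the 10 enzymes, then Ldha and then Tpi1, in all 4 groups. In B1b cells these 3 averaged 193 ± 30.7, 90.3 ± 7.58 and 70.0 ± 7.33 CPM per kb (SD, n = 6), and neighbours in this order did not overlap. In aortas they averaged 535 ± 201, 198 ± 44.6 and 127 ± 23.9 CPM per kb (SD, n = 10), and Ldha and Tpi1 overlapped in range, although Ldha was above Tpi1 in 10 of 10 aortas. Below these 3 the order differed between the tissues. In B1b cells Hk1 came next (33.7 ± 4.39 CPM per kb), then Pfkl (17.3 ± 3.09), Aldoc (6.33 ± 1.37), Hk2 (3.86 ± 0.597), Pgk1 (1.47 ± 0.684), Pfkm (1.35 ± 0.467) and Ldhb (0.111 ± 0.117). Aldoc and Hk2 overlapped there, and so did Pgk1 and Pfkm, which changed places between the genotypes. In aortas Ldhb came next (76.1 ± 29.1 CPM per kb), then Pfkm (39.3 ± 13.7), Pfkl (32.1 ± 12.1), Hk1 (31.1 ± 7.95) and Hk2 (23.5 ± 5.78), each overlapping its neighbours. Aldoc (4.71 ± 9.48) and Pgk1 (4.44 ± 0.949) were lowest, and the mean of Aldoc rested on 1 library. The place of Pgk1 in both tissues is uncertain, since the counting of reads that match several places is not described.

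**Figure D1:**
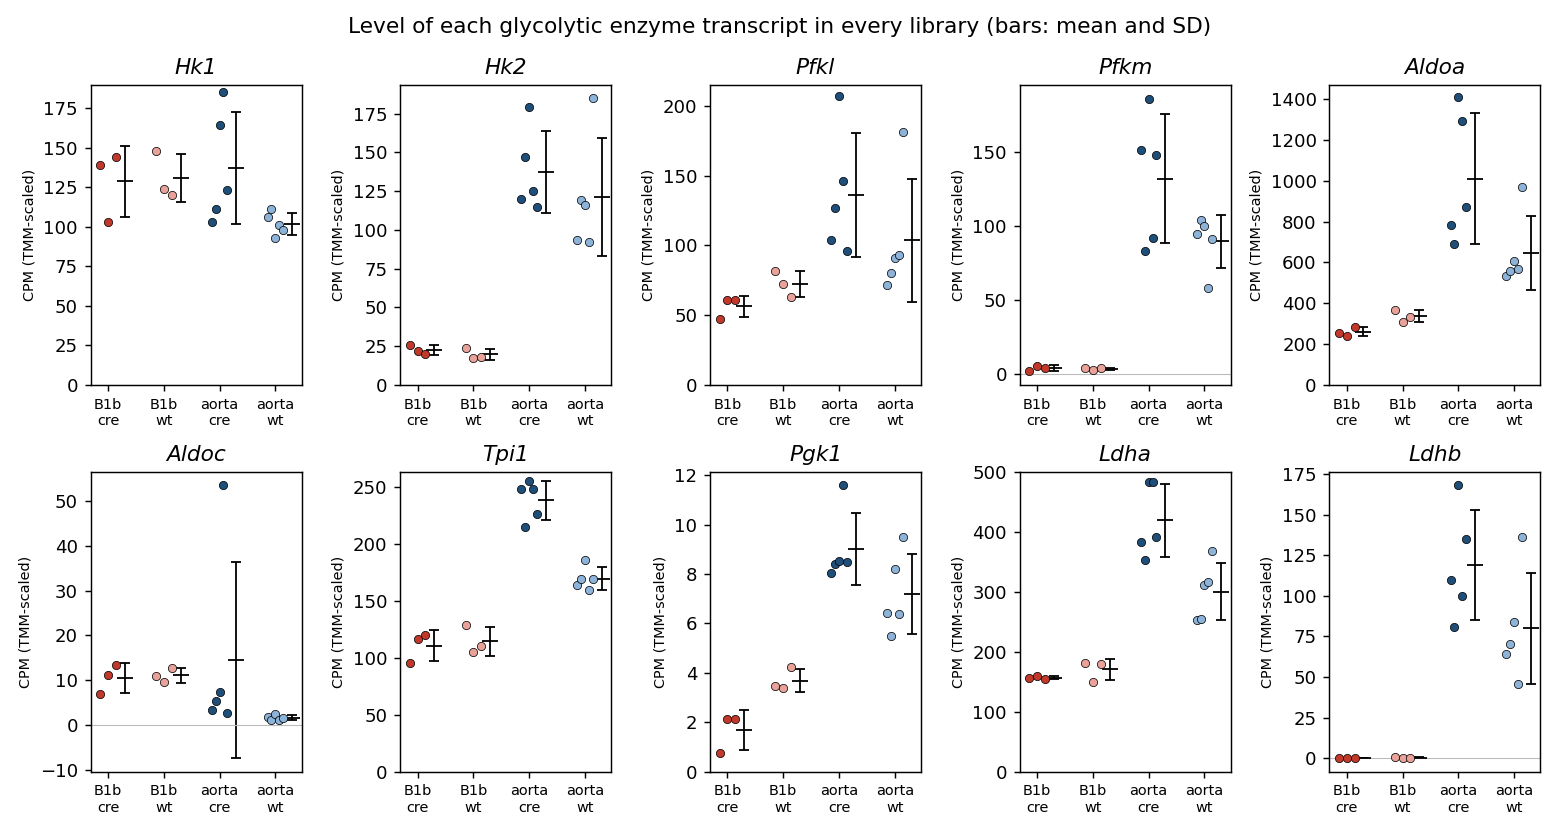
Level of each enzyme transcript in CPM (TMM-scaled) in every library, 1 panel per gene, with B1b cre, B1b wild type, aorta cre and aorta wild type from left to right; points are libraries and bars are the mean and SD. Pfkm and Ldhb lie near 0 in all 6 B1b libraries, Hk1 spans similar levels in both tissues, and Aldoc stands at 53.5 CPM in 1 cre aorta.

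B1b cells had less transcript of most of these enzymes than aortas. In cre, 0 of the 10 genes were higher and 8 lower in B1b cells than in aortas, where 33.8% of the 14408 genes tested were higher and 40.2% lower (74% called). In wild type, 2 were higher and 7 lower, where 35.4% of the 14339 genes tested were higher and 40.4% lower (75.9% called). A call means an edgeR quasi-likelihood p under 0.05 after Benjamini-Hochberg adjustment over all genes tested. The median log2 fold change of the 10 genes was -1.63 in cre, against -0.12 over all genes, and -0.88 in wild type, against -0.09 over all genes. The tissues did not overlap for 8 of the 10 genes in cre and 9 in wild type, against 71.3% and 72.6% of all genes tested. The cre and wild-type comparisons use different libraries. Ldhb entered the tests through its aorta counts alone, so its difference follows from that filter. Over the 9 other genes, 0 were higher and 7 lower in cre, with a median of -1.36 and 7 without overlap, and 2 were higher and 6 lower in wild type, with a median of -0.82 and 8 without overlap.

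**Figure D2:**
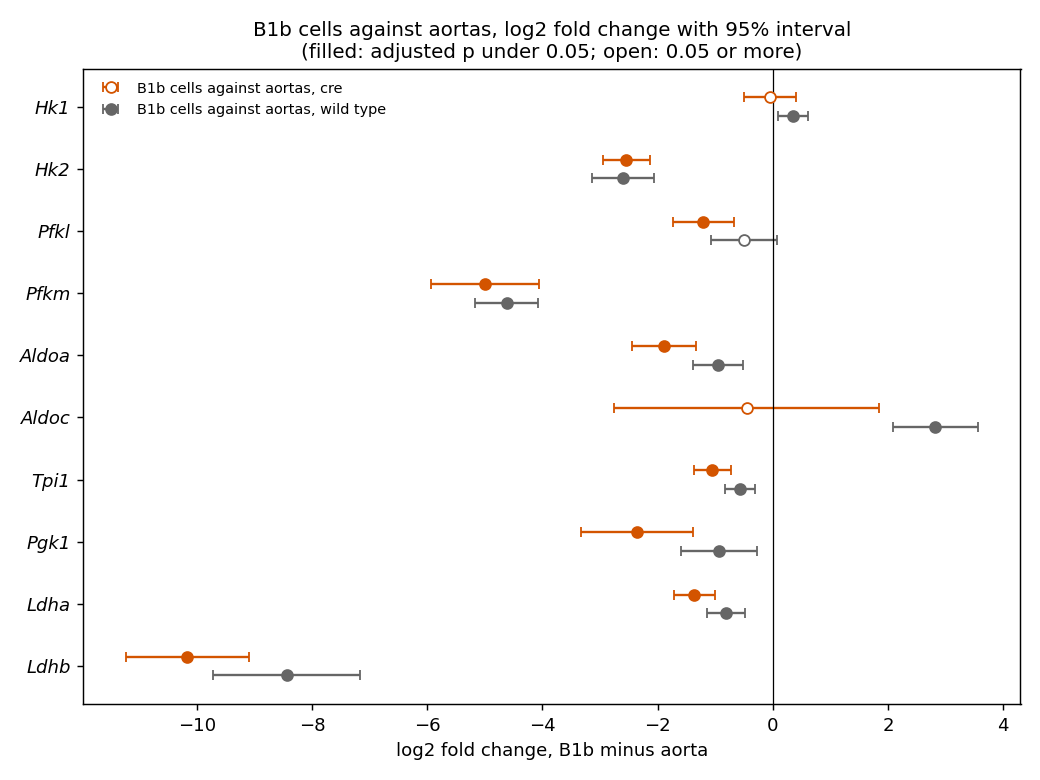
Log2 fold change of each enzyme, B1b cells minus aortas, in the cre libraries (orange) and the wild-type libraries (grey), with 95% intervals; filled symbols passed the adjusted threshold of 0.05 and open ones did not. Ldhb (-10.16 in cre and -8.44 in wild type) and Pfkm (-5.00 and -4.62) lie farthest below 0, and Aldoc lies above 0 in wild type, while its interval in cre spans 0. Ldhb passed the count filter through its aorta counts alone, so its place and its filled symbols follow from that filter.

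The hexokinases, which trap glucose in the cell as glucose 6-phosphate, did not share their pattern: Hk2 was lower in B1b cells in both genotypes and Hk1 was not. Hk1 (chr10:62268855-62379920) was at 139, 103 and 144 CPM in cre B1b cells and at 148, 124 and 120 CPM in wild-type B1b cells. Its aorta values were 103, 111, 164, 185 and 123 CPM in cre and 106, 111, 93.1, 101 and 98.2 CPM in wild type. In wild type all 3 B1b libraries lay above all 5 aortas, whereas in cre the tissues overlapped. Hk1 passed as higher in wild-type B1b cells, by 1.28-fold (log2 fold change 0.35, SE 0.12, edgeR quasi-likelihood adjusted p = 0.0172), a call that ended without B1b wild type replicate 1 (0.25, edgeR adjusted p = 0.11) and in 3 other settings (edgeR or DESeq2 adjusted p from 0.0134 to 0.0761 over all settings). In cre its log2 fold change was -0.04 (95% interval -0.50 to 0.41).

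Hk2 (chr6:82725025-82774454) was at 25.9, 22.1 and 19.9 CPM in cre B1b cells and at 24.0, 17.6 and 18.2 CPM in wild-type B1b cells. In aortas it was at 120, 147, 179, 125 and 115 CPM in cre and 93.5, 119, 116, 92.5 and 185 CPM in wild type. Every B1b library lay below every aorta. Hk2 was 5.82-fold lower in B1b cells than in aortas in cre (log2 fold change -2.54, SE 0.19, edgeR quasi-likelihood adjusted p = 1.53e-07) and 6.06-fold lower in wild type (-2.60, SE 0.24, adjusted p = 8.49e-07, edgeR). Per kilobase, B1b cells held 6.69 to 10.3 times as much Hk1 as Hk2. In aortas Hk1 was at 1.09 to 2.12 times Hk2 in cre and at 0.76 to 1.62 times in wild type, with Hk2 the higher of the pair in 1 aorta, wild type replicate 5.

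Phosphofructokinase commits sugar to glycolysis, and its subunits differed in how far they were below the aortas: Pfkm was close to 0 in B1b cells and Pfkl was not. Pfkm (chr15:98092589-98132447), the muscle-type subunit, was at 1.87, 5.58 and 4.47 CPM in cre B1b cells and at 4.01, 2.72 and 4.11 CPM in wild-type B1b cells, from 15 to 44 counts a library. The aortas had 151, 83.0, 186, 91.6 and 148 CPM in cre and 94.4, 104, 99.8, 58.2 and 91.4 CPM in wild type. No B1b library came near the lowest aorta. Pfkm was 32.0-fold lower in B1b cells in cre (log2 fold change -5.00, SE 0.43, edgeR quasi-likelihood adjusted p = 1.2e-06) and 24.6-fold lower in wild type (-4.62, SE 0.25, edgeR adjusted p = 4.27e-09).

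Pfkl (chr10:77986947-78009807), the liver-type subunit, was at 47.6, 60.9 and 60.7 CPM in cre B1b cells and at 81.5, 72.4 and 62.9 CPM in wild-type B1b cells. Its aorta values were 104, 127, 207, 146 and 96.2 CPM in cre and 71.9, 80.2, 91.2, 93.5 and 181 CPM in wild type. The tissues lay apart in cre and overlapped in wild type. Pfkl was 2.31-fold lower in B1b cells in cre (log2 fold change -1.21, SE 0.24, edgeR quasi-likelihood adjusted p = 0.000655), and in wild type the difference was -0.50 (SE 0.26, edgeR adjusted p = 0.101). The wild-type value passed without aorta wild type replicate 1 (-0.61, edgeR adjusted p = 0.048) and with DESeq2 (-0.61, adjusted p = 0.0454). Per kilobase, Pfkl was at 8.13 to 18.6 times Pfkm in cre B1b cells and at 11.4 to 19.6 times in wild-type B1b cells. In aortas it was at 0.492 to 1.20 times Pfkm in cre and at 0.575 to 1.49 times in wild type, so that Pfkl and Pfkm were at similar levels there.

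The aldolases cleave fructose 1,6-bisphosphate. Aldoa (chr7:126795234-126800994) was at 257, 241 and 286 CPM in cre B1b cells and at 369, 310 and 331 CPM in wild-type B1b cells. In aortas it was at 785, 690, 1410, 1290 and 873 CPM in cre and 533, 560, 609, 568 and 967 CPM in wild type. Every B1b library lay below every aorta. Aldoa was 3.71-fold lower in B1b cells in cre (log2 fold change -1.89, SE 0.26, edgeR quasi-likelihood adjusted p = 3.22e-05) and 1.93-fold lower in wild type (-0.95, SE 0.20, edgeR adjusted p = 0.000932).

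Aldoc (chr11:78323073-78327781), the brain-type aldolase, was at 6.86, 11.2 and 13.3 CPM in cre B1b cells and at 10.8, 9.59 and 12.8 CPM in wild-type B1b cells. The aortas had 3.42, 5.41, 7.34, 53.5 and 2.62 CPM in cre and 1.66, 1.10, 2.36, 0.992 and 1.58 CPM in wild type. These aorta values rest on few reads, 14, 9, 31, 398 and 17 in cre and 7, 5, 15, 7 and 3 in wild type. The tissues lay apart in wild type, with B1b cells higher, and overlapped in cre through replicate 4 at 53.5 CPM and replicate 3 at 7.34 CPM. Aldoc was 7.08-fold higher in B1b cells in wild type (log2 fold change 2.82, SE 0.34, edgeR quasi-likelihood adjusted p = 6.97e-06). In cre the difference was -0.45 (95% interval -2.75 to 1.84, edgeR adjusted p = 0.696), and it was 1.14 and past the threshold without aorta cre replicate 4 (edgeR adjusted p = 0.0259). Aldoa outweighed Aldoc per kilobase in every library, by 23.5 to 40.8 times in B1b cells and by 26.5 to 587 times in aortas.

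Tpi1 (chr6:124810586-124814158) interconverts the triose phosphates. It was at 95.1, 117 and 120 CPM in cre B1b cells and at 129, 105 and 110 CPM in wild-type B1b cells. Aortas held 248, 215, 255, 248 and 226 CPM in cre and 164, 169, 186, 160 and 169 CPM in wild type. All aortas lay above all B1b libraries. Tpi1 was 2.07-fold lower in B1b cells in cre (log2 fold change -1.05, SE 0.15, edgeR quasi-likelihood adjusted p = 4.15e-05) and 1.49-fold lower in wild type (-0.57, SE 0.12, edgeR adjusted p = 0.000854).

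Pgk1 (chrX:106187100-106203699) carries out the ATP-forming step that follows the triose phosphates. It rested on few reads, 6 to 38 counts in a B1b library and 14 to 86 in an aorta. In CPM it was at 0.748, 2.15 and 2.13 in cre B1b cells and at 3.48, 3.37 and 4.22 in wild-type B1b cells. In aortas it was at 8.06, 8.42, 8.53, 11.6 and 8.48 CPM in cre and 6.41, 5.51, 8.19, 6.37 and 9.51 CPM in wild type. The aortas again lay above all B1b libraries. Pgk1 was 5.12-fold lower in B1b cells in cre (log2 fold change -2.35, SE 0.45, edgeR quasi-likelihood adjusted p = 0.000475) and 1.92-fold lower in wild type (-0.94, SE 0.30, edgeR adjusted p = 0.0134). RefSeq names 3 pseudogenes or related sequences after Pgk1, 3 after Ldha, 1 after Ldhb, 5 after Aldoa and 7 after Tpi1. They were counted by name, and how alike the sequences are was not compared. The counting of reads that match several places is not described in the labels. Gapdh, with 3 such names, had only 4 to 16 counts a library and Pgam1 14 to 99, so the levels of these genes relative to other genes are uncertain.

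Lactate dehydrogenase, which converts pyruvate and lactate into each other, had the largest difference in mean log2 isozyme ratio of the 4 pairs. Ldha (chr7:46842274-46855627) was at 157, 159 and 155 CPM in cre B1b cells and at 182, 150 and 180 CPM in wild-type B1b cells. The aortas had 384, 354, 484, 484 and 391 CPM in cre and 253, 255, 311, 316 and 368 CPM in wild type. Every B1b library lay below every aorta. Ldha was 2.57-fold lower in B1b cells in cre (log2 fold change -1.36, SE 0.16, edgeR quasi-likelihood adjusted p = 1.08e-05) and 1.77-fold lower in wild type (-0.82, SE 0.15, edgeR adjusted p = 0.000341).

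Ldhb (chr6:142490249-142507957) had 0, 1 and 1 reads in cre B1b cells and 3, 0 and 2 reads in wild-type B1b cells. In aortas it had 449, 134, 709, 742 and 876 reads in cre and 270, 320, 531, 321 and 257 in wild type, or 80.6 to 168 CPM in cre and 45.5 to 136 CPM in wild type. B1b cells were thus near the limit of what these depths can show, and every aorta had at least 134 reads. Summed over libraries, aortas exceeded B1b cells 1510-fold after scaling for library size in cre (95% counting interval 418 to 12500) and 342-fold in wild type (146 to 1050). These are exact intervals that cover counting error alone. No p is given, since Ldhb passed the count filter through the aortas, where it was high. In aortas Ldha was at 2.07 to 3.48 times Ldhb per kilobase in cre and at 1.95 to 4.98 times in wild type, whereas in B1b cells it was at 279 to 1810 times, a figure that depends on the 0.5 counts added to each gene in every library.

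The ratio of the isozymes within a library does not depend on the scaling of libraries, and all 4 ratios were compared between the tissues. The mean log2 ratio of Hk2 to Hk1 was -3.01 in B1b cells and -0.50 in aortas in cre, and -3.23 in B1b cells and -0.31 in aortas in wild type. The ratio of Pfkl to Pfkm was 3.53 in B1b cells and -0.35 in aortas in cre, and 3.91 in B1b cells and -0.25 in aortas in wild type. For Ldhb to Ldha the means were -9.80 in B1b cells and -1.38 in aortas in cre, and -9.23 in B1b cells and -1.52 in aortas in wild type. The B1b means of this ratio rest on 0 to 3 reads of Ldhb a library and on the 0.5 counts added. The libraries of the tissues did not overlap for any of these 3 ratios in either genotype. For Ldhb to Ldha this follows from Ldhb being near 0 reads in B1b cells, so no p is given for that ratio between the tissues. For Hk2 to Hk1 and Pfkl to Pfkm, each comparison gave the smallest p that 3 against 5 libraries allow (exact two-sided permutation test, p = 0.0357). After adjustment over the 16 ratio tests these values were 0.0714. Aldoc to Aldoa behaved likewise in wild type (-5.06 in B1b cells and -8.76 in aortas, exact permutation p = 0.0357, adjusted 0.0714) but not in cre, where the groups overlapped (-4.82 in B1b cells and -7.17 in aortas, exact permutation p = 0.0714, adjusted 0.127). Without aorta cre replicate 4, that last difference was 2.96 in place of 2.35 on the log2 scale (exact permutation p = 0.0571, the smallest that 3 against 4 allow).

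**Figure D3:**
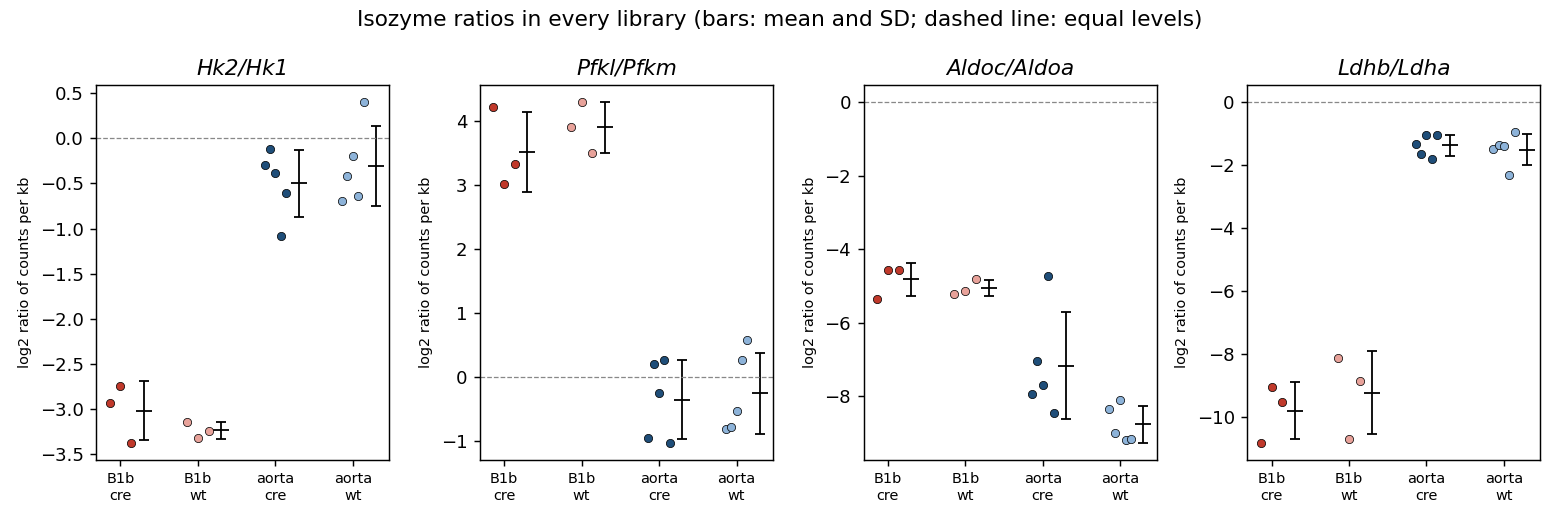
Log2 ratio of counts per kilobase for each isozyme pair in every library, with B1b cre, B1b wild type, aorta cre and aorta wild type from left to right; points are libraries, bars are the mean and SD, and the dashed line marks equal levels. B1b cells and aortas lie apart for Hk2 to Hk1, Pfkl to Pfkm and Ldhb to Ldha, while cre aorta replicate 4 lies among the B1b cells for Aldoc to Aldoa. The B1b values of Ldhb to Ldha rest on 0 to 3 reads of Ldhb a library.

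Within B1b cells, no enzyme passed the test between cre and wild type. Of the 9 genes tested, since Ldhb fell under the count filter, 0 were called and 3 had an unadjusted p under 0.05, where 0.707% of the 11732 genes tested were called and 13.3% had an unadjusted p under 0.05. Aldoa came closest: all 3 cre libraries (241 to 286 CPM) lay below all 3 wild-type libraries (310 to 369 CPM), with a log2 fold change of -0.36 (SE 0.09, 95% interval -0.54 to -0.18, edgeR quasi-likelihood adjusted p = 0.0588). It passed in 2 of 7 other settings, with DESeq2 (adjusted p = 0.0173) and without the filter on low counts (edgeR adjusted p = 0.00695). Those 2 settings called 63 of 11732 and 101 of 19348 genes as lower, against 26 of 11732 in the main fit. Of 6 fits without 1 library it passed in 1, without B1b cre replicate 3 (-0.42, edgeR adjusted p = 0.0258). Over these 6 fits its log2 fold change ran from -0.42 to -0.27 (edgeR adjusted p from 0.0258 to 0.275). Pfkl at -0.35 (SE 0.12, edgeR adjusted p = 0.22) and Pgk1 at -1.12 (SE 0.51, edgeR adjusted p = 0.35) were also lower in every cre library than in any wild-type library. These 3 of 9 genes compare with 8.93% of all genes tested whose cre libraries all lay below the wild-type ones. The other 6 had log2 fold changes from -0.11 to 0.19: Hk1 -0.02, Hk2 0.19, Pfkm 0.14, Aldoc -0.07, Tpi1 -0.04 and Ldha -0.11. Their 95% intervals reached from -0.26 to 0.22 for Hk1, from -0.28 to 0.19 for Tpi1 and from -0.30 to 0.07 for Ldha, against -0.78 to 1.07 for Pfkm with its few reads.

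Marker lists of other cells and of cycling were summed in the same sorted libraries. The 8 macrophage and monocyte markers summed to 500 to 533 CPM in cre and 276 to 430 CPM in wild type, and the 8 markers of cycling cells to 86.5 to 221 CPM in cre and 42.9 to 62.8 CPM in wild type. The 7 red blood cell markers summed to 1180 CPM in wild type replicate 1, against 1.12 to 7.61 CPM in cre and 10.6 and 26.1 CPM in the other wild-type libraries. That same library was highest for Hk1, Pfkl, Aldoa, Tpi1, Ldha and Ldhb and above the mean of the 6 libraries for all 10 genes. Between cre and wild type, 6 of 7 tested macrophage and monocyte markers were above 0, and 3 had an unadjusted p under 0.05 (edgeR). Among them 1 was called, Csf1r at a log2 fold change of 0.99 (edgeR quasi-likelihood adjusted p = 0.0357), while Adgre1 was at -0.28. All 7 tested cycling markers were above 0, with a median of 1.28. Of these, 5 had an unadjusted p under 0.05 (edgeR) and 0 were called. The 3 tested red blood cell markers were below 0, with 0 called. Over all genes tested, 13.3% had an unadjusted p under 0.05. The part of these markers in the enzyme values was not tested. The isozyme ratios of B1b cells differed between the genotypes by -0.57 to 0.24 on the log2 scale (exact permutation p from 0.4 to 0.5, where 3 against 3 cannot go below 0.1).

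In aortas, all 10 enzymes had a mean on the higher side in cre, and none passed the test over all genes. Of the 10, 0 were called and 7 had an unadjusted p under 0.05, where 0.015% of the 13364 genes tested were called and 12.6% had an unadjusted p under 0.05. Their median log2 fold change was 0.49, against 0 over all genes, of which 50.2% were above 0. Tpi1 was higher in every cre aorta (215 to 255 CPM) than in any wild-type aorta (160 to 186 CPM), with a log2 fold change of 0.49 (SE 0.11, 95% interval 0.25 to 0.73, edgeR quasi-likelihood adjusted p = 0.156). It passed in 2 of 8 other settings, with DESeq2 (adjusted p = 0.000285) and with all 16 libraries in 1 edgeR fit (adjusted p = 0.0478), and its log2 fold change stayed between 0.47 and 0.53 when any library was left out (edgeR adjusted p from 0.124 to 0.437). Those 2 settings also called more genes as higher in general, 127 of 13364 and 36 of 15091, against 2 of 13364 in the main fit. Aldoc was the other gene whose groups did not overlap, at 2.62 to 53.5 CPM in cre and 0.992 to 2.36 CPM in wild type (log2 fold change 3.26, SE 0.90, edgeR adjusted p = 0.238), and it was at 1.57 without cre replicate 4 (edgeR adjusted p = 0.261). Its groups were close at low depth: 2.62 CPM in cre replicate 5 was 17 reads, and 2.36 CPM in wild type replicate 3 was 15 reads. Tpi1 and Aldoc, 2 of 10 genes, compare with 1.62% of all genes tested whose cre aortas all lay above the wild-type ones.

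The other 8 enzymes overlapped between the genotypes. Their log2 fold changes were 0.64 for Aldoa (SE 0.22), 0.59 for Ldhb (SE 0.26), 0.56 for Pfkm (SE 0.22), 0.48 for Ldha (SE 0.15), 0.43 for Hk1 (SE 0.16), 0.41 for Pfkl (SE 0.26), 0.35 for Pgk1 (SE 0.25) and 0.19 for Hk2 (SE 0.19). Adjusted p-values of these 8 ran from 0.243 to 0.712 (edgeR quasi-likelihood). For 3 of the 4 isozyme pairs no difference between the genotypes was detected, with differences in mean log2 ratio of -0.19 for Hk2 to Hk1, -0.10 for Pfkl to Pfkm and 0.14 for Ldhb to Ldha (exact permutation p from 0.5 to 0.794). Aldoc to Aldoa differed by 1.59 on the log2 scale (exact permutation p = 0.0238, adjusted over the 16 ratio tests 0.0714), and by 0.98 without cre replicate 4 (exact permutation p = 0.0476).

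**Figure D4:**
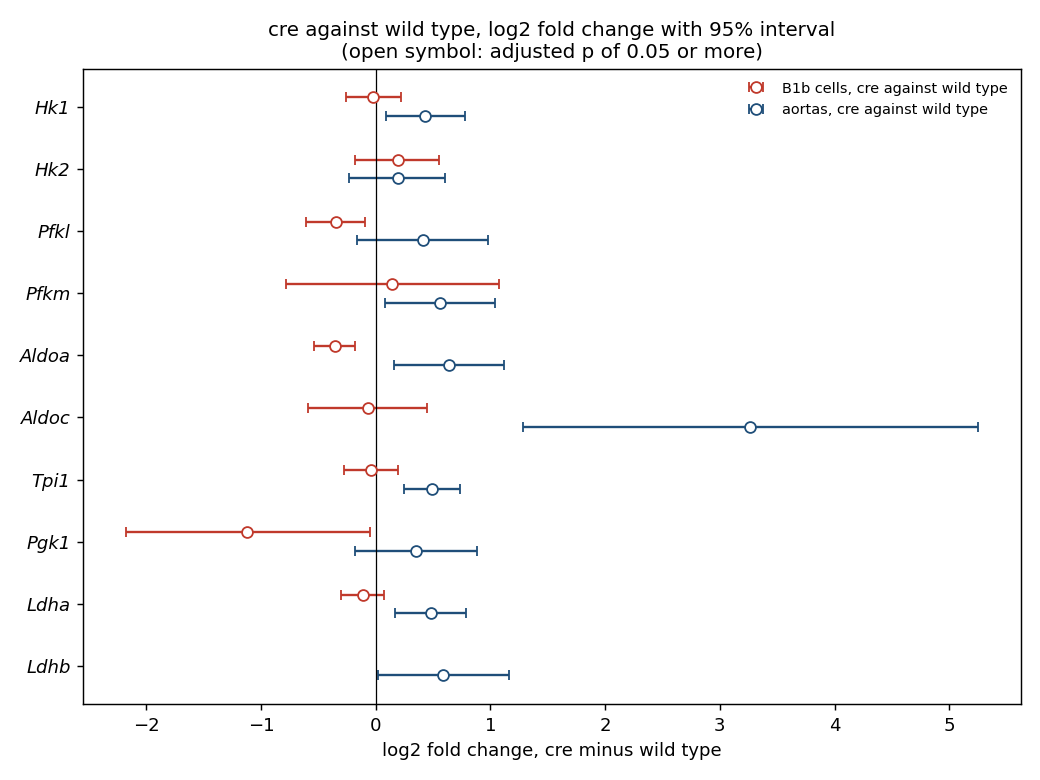
Log2 fold change of each enzyme, cre minus wild type, in B1b cells (red) and in aortas (blue), with 95% intervals; open symbols mark an adjusted p of 0.05 or more, which holds for all of them. In aortas all 10 values lie above 0, from 0.19 for Hk2 to 3.26 for Aldoc; in B1b cells 7 of 9 lie below 0, and Ldhb was not tested.

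The difference between the tissues in the effect of the cre label was tested as an interaction over all 16 libraries. Ldhb is left out here, since its B1b effect rests on 2 reads in cre and 5 in wild type. The other 9 values, B1b effect minus aorta effect, were below 0, with a median of -0.60 against -0.05 over all genes. Of these 9, 0 were called and 5 had an unadjusted p under 0.05, where 0.0199% of 15091 genes were called and 11.1% had an unadjusted p under 0.05. Those 5 were Aldoc at -3.36 (SE 1.12), Pgk1 at -1.48 (SE 0.49), Aldoa at -1.01 (SE 0.32), Ldha at -0.60 (SE 0.21) and Tpi1 at -0.54 (SE 0.17), with edgeR quasi-likelihood adjusted p-values from 0.267 to 0.311. Hk2, at -0.01, was the value nearest to 0, and it changed sign with DESeq2 or its size factors (0.04 in each) and in 9 of the 16 fits without 1 library.

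The aortas differed among themselves in enzyme level and in tissue composition. Cre replicate 3 was above the 10-aorta mean for all 10 enzymes and highest for Pfkl, Pfkm, Aldoa, Tpi1 and Ldhb. Cre replicate 4 was highest for Hk1, Aldoc, Pgk1 and Ldha, level with replicate 3 for Ldha in rounded CPM. Wild type replicate 4 was lowest for Hk2, Pfkm, Aldoc, Tpi1 and Ldhb, and wild type replicate 5 was the 1 wild-type aorta above the mean for more than 1 enzyme, 6 of the 10.

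Marker lists also differed between the aortas, not all of them in the libraries just named, and their part in the enzyme values was not tested. The 10 heart muscle markers summed to 7340, 3890, 6880, 840 and 6780 CPM in cre and 2380, 3010, 3120, 709 and 1620 CPM in wild type, lowest in the 2 libraries numbered 4. All 10 heart markers had a log2 fold change above 0 in cre, 0 of them called and 5 with an unadjusted p under 0.05 (edgeR). The 11 skeletal muscle markers summed to 93.8 to 1160 CPM in cre and 29.3 to 205 CPM in wild type. The 10 fat cell markers reached 5490 and 6310 CPM in cre replicates 3 and 4 and 5350 CPM in wild type replicate 5, against 1790 to 2560 CPM in the other cre aortas and 979 to 2080 CPM in the other wild-type aortas. The 12 nerve and Schwann cell markers summed to 1690 CPM in cre replicate 4, the library with 53.5 CPM of Aldoc, against 430 to 501 CPM in the other cre aortas and 374 to 543 CPM in wild type. Th, the enzyme of catecholamine synthesis in sympathetic nerve, was at 343 CPM in that library, against 0 to 23.7 CPM in the other 4 cre aortas and 0 to 1.58 CPM in wild type. The 7 fibroblast markers went the other way, at 14500 to 25200 CPM in cre and 22800 to 30700 CPM in wild type. No marker of these 5 lists was at 0 in all aortas of a genotype.

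**Figure D5:**
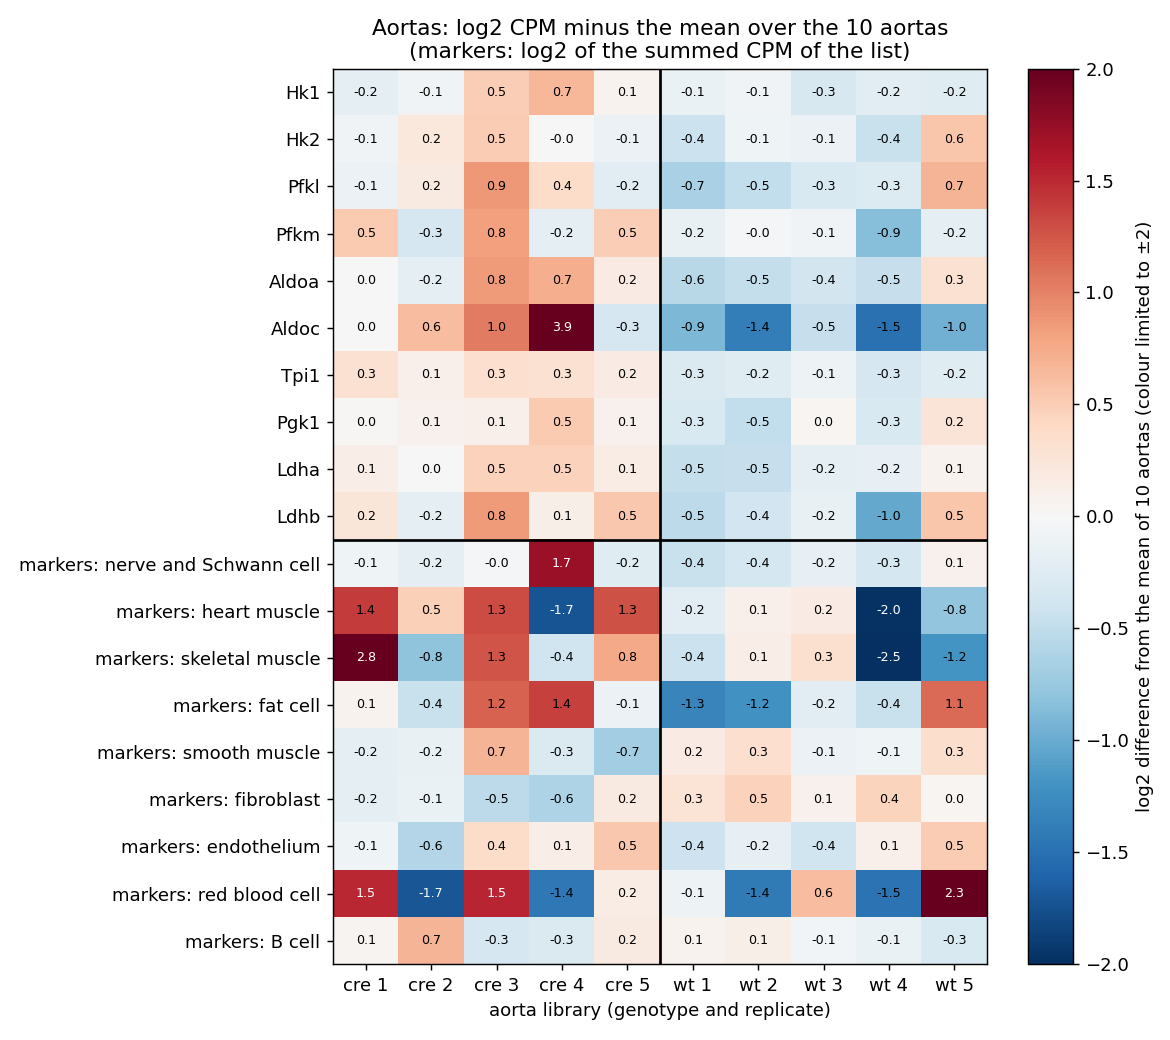
Log2 CPM of each enzyme and log2 of the summed CPM of each marker list in the 10 aortas, as the difference from the mean of the 10 aortas (red above, blue below, colour limited at 2 log2 units), with the 5 cre libraries left of the 5 wild-type ones. Cre replicate 3 is above the mean for all 10 enzymes, and cre replicate 4 stands apart for Aldoc and for the nerve markers.

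The 3 enzymes that varied most over the 10 aortas were compared with all 8322 genes whose mean over these aortas was at least 20 CPM, by the root mean square difference of centred log2 CPM. Nearest to Aldoc were Stmn2 (0.46 log2 units), Syp (0.48) and Uchl1 (0.53), which encode the neuronal proteins stathmin 2 and synaptophysin and a neuronal ubiquitin hydrolase. Stmn2 was at 13.0, 52.3, 33.4, 361 and 11.7 CPM in cre and at 7.65 to 10.9 CPM in wild type. Ldhb was nearest to Art3 (0.18), an ADP-ribosyltransferase family gene, Mdh1 (0.19), the cytosolic malate dehydrogenase, and Atp5o (0.20), a subunit of the mitochondrial ATP synthase. Mdh1 was at 439, 278, 543, 419 and 468 CPM in cre and at 245, 258, 261, 197 and 371 CPM in wild type, with the same library, wild type replicate 4, lowest. Pfkl was nearest to Abi3 (0.15), Tmem143 (0.17) and Letm1 (0.18), a protein of the inner mitochondrial membrane. In B1b cells the 3 that varied most were Pgk1, Pfkm and Ldhb, all of them at low counts, compared with 7044 genes over 6 libraries. Nearest to Pgk1 were Bri3 (0.40), Ccr9 (0.41) and Commd4 (0.43), to Pfkm Ngfr (0.26), H2aj (0.30) and Cox5a (0.30), and to Ldhb, with 0 to 3 reads a library, Mrps34 (0.20), Mafa (0.20) and Fam3c (0.22).

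Further genes of sugar metabolism were followed in the same fits. In B1b cells and in aortas, 0 genes of any of the 6 other lists were called between cre and wild type (edgeR quasi-likelihood), and 0 to 3 genes a list had an unadjusted p under 0.05. Of 17 further glycolytic enzymes, 11 were tested in each tissue, with a median log2 fold change of -0.22 in B1b cells and 0.36 in aortas, and 3 had an unadjusted p under 0.05 in each. In B1b cells these were Pkm, the pyruvate kinase of most adult tissues (-0.22, SE 0.08), Eno1, an enolase (-0.24, SE 0.10), and Bpgm, which makes 2,3-bisphosphoglycerate (-0.74, SE 0.31), with edgeR quasi-likelihood adjusted p from 0.263 to 0.35. In aortas they were the glucose 6-phosphate isomerase Gpi1 (0.36, SE 0.16) and the phosphoglycerate mutases Pgam1 (0.67, SE 0.29) and Pgam2 (1.40, SE 0.49), with edgeR adjusted p from 0.309 to 0.372. These 6 were picked with their values in view. Of the 3 in B1b cells, Pkm and Eno1 were lower in every cre library than in any wild-type library, and Bpgm overlapped between the genotypes. The red blood cell markers summed to 1180 CPM in wild-type B1b replicate 1, and their part in the Bpgm value was not tested. Eno1 shares reads with Eno1b, an annotated near-copy.

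Between the tissues the further glycolytic enzymes gave 1 higher and 9 lower in B1b cells in cre and 2 higher and 6 lower in wild type, of 12 tested. Over all genes tested, 33.8% were higher and 40.2% lower in cre, and 35.4% higher and 40.4% lower in wild type. These shares also stand beside the lists that follow. Hk3, Slc2a4, Fbp2, Pdk4, Gpd1, Phkg1, P4ha2 and Egln3 fell under the count filter in the fit of B1b cells alone. They entered the tissue tests through their aorta counts, so their differences and their part in the list counts follow from that filter. Muscle, nerve and myeloid isozymes led this list. Eno3, the muscle enolase, averaged 13.0 CPM in B1b cells and 104 CPM in aortas in cre, and 11.4 CPM in B1b cells and 56.6 CPM in aortas in wild type. Eno2, the neuronal enolase, differed by -5.14 in cre and -3.90 in wild type on the log2 scale, Pgam2, the muscle phosphoglycerate mutase, by -3.80 and -2.47, and Hk3, a hexokinase of myeloid cells, by -5.63 and -5.31.

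Of 16 tested genes of glucose and lactate transport and control of glycolysis, 6 were higher and 6 lower in B1b cells in cre, and 7 higher and 5 lower in wild type. Myc, a transcription factor that drives glycolytic genes, was higher in B1b cells at 481 CPM, against 22.0 CPM in aortas, in cre, and at 469 CPM, against 23.2 CPM, in wild type (log2 fold changes 4.51 and 4.33, edgeR quasi-likelihood adjusted p = 2.9e-09 and 1.63e-10). Slc2a4, the insulin-responsive glucose transporter, had 0 reads in wild-type B1b cells, at least 420-fold lower than in aortas at 3 counts over the group, and differed by -8.83 in cre. Slc16a3, a lactate exporter, differed by -2.86 in cre and -3.29 in wild type, and Fbp2, the muscle fructose bisphosphatase, by -5.60 and -5.25.

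Of 14 genes of pyruvate entry into mitochondria, 1 was higher and 10 lower in cre and 1 higher and 9 lower in wild type. Pdk4, a kinase that shuts off pyruvate dehydrogenase, averaged 1.02 CPM in B1b cells and 331 CPM in aortas in cre, and 1.10 CPM in B1b cells and 240 CPM in aortas in wild type. Of 11 genes of the pentose phosphate and glycerol phosphate branches, 2 were higher and 4 lower in cre and 3 higher and 3 lower in wild type. Gpd1, the glycerol 3-phosphate dehydrogenase abundant in fat, differed by -10.00 in cre and -10.28 in wild type, while Gpd1l, its close relative, was higher in B1b cells by 2.59 and 2.67, and Rpia, the ribose 5-phosphate isomerase, by 2.01 and 1.96.

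Of 11 glycogen genes, 0 were higher in either genotype, and 8 were lower in B1b cells in cre and 7 in wild type, among them Pygm, the muscle glycogen phosphorylase (-4.57 in cre and -4.02 in wild type), and Phkg1, a subunit of phosphorylase kinase (-4.50 and -4.69). Of 14 genes that hypoxia induces in many cells, 3 were higher and 9 lower in B1b cells in cre and 3 higher and 10 lower in wild type. Vegfa, the endothelial growth factor, differed by -6.95 in cre and -6.50 in wild type, Ndrg1 by -6.22 and -5.40, and P4ha2, a collagen prolyl hydroxylase subunit, by -7.57 and -8.95. Egln3, an oxygen-sensing hydroxylase, had 0 reads in cre B1b cells, at least 142-fold lower than in aortas at 3 counts over the group, and differed by -5.98 in wild type.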

How the data were processed

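Total RNA was sequenced from sorted peritoneal B1b cells and whole aortas, with libraries made with the KAPA mRNA Hyperprep kit, per the labels' protocols. Per the submitters' processing notes, the tools were CASAVA 1.8.2 and STAR 2.5.2b and the build was mm10. Which tool counted the reads, on which annotation and with which strand setting is not stated in the labels or headers. The authors deposited raw counts of reads, whole and not normalized, for each RefSeq transcript in 1 column per sample, and columns were matched to samples by title. Of 35745 transcript rows, 35440 were named through RefSeq and 188 through GENCODE M21, and 117 were left unnamed. The row of highest total count was kept for each gene, because rows of 1 gene share reads, and the 10 enzymes had 20 rows in all. Library totals after this step were 1645926 to 9911226.

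Each comparison was fitted on its own groups with edgeR 4.0.16 in R 4.3.3 (TMM, filterByExpr, robust quasi-likelihood F test), with Benjamini-Hochberg adjustment over all genes tested and a threshold of 0.05. The script was tested on simulated counts. CPM are TMM-scaled over all 16 libraries, and CPM per kb use the transcript length of GENCODE M21. Isozyme log2 ratios (0.5 counts added, per kb) were compared by exact two-sided permutation tests in scipy 1.17.1. Alternatives were DESeq2 1.42.0, its size factors, library size alone, limma-voom (limma 3.58.1), no filter, the transcript row of lowest total, all 16 libraries in 1 fit, and leaving out each library or the 2 libraries under 2000000 counts. Promoter sequences and gene coordinates are from RefSeq GRCm38.p6, the assembly behind mm10. All 10 enzymes and Cd40 are named. From each other list up to 4 genes are named by largest change between the tissues among those called in both genotypes, and for the 3 most variable enzymes of each tissue the 3 nearest genes. Members and lists were chosen with earlier results of these data known. Replicate numbers only follow accession order and were not used to pair samples. 1 gene of the B cell marker list is not reported here and was left out of its sum.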

Additional observations from a re-analysis of the deposited data

Results flagged for a closer look

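Within the groups of 5 aortas, 6 values of 28 groups of values looked at lay far from the other 4 libraries (Dixon's test at the 95% level, by which chance sets apart about 1 in 20 groups). Aldoc stood at 53.5 CPM in cre aorta replicate 4, against 2.62 to 7.34 CPM in the other 4 cre aortas. Pgk1 stood at 11.6 CPM in that library, against 8.06 to 8.53 CPM in the others. Wild type replicate 5, a library of under 2000000 counts, was set apart for 3 enzymes: Hk2 at 185 CPM, against 92.5 to 119 CPM in the other wild-type aortas, Pfkl at 181 CPM, against 71.9 to 93.5 CPM, and Aldoa at 967 CPM, against 533 to 609 CPM. Pfkm was lowest in wild type replicate 4, at 58.2 CPM, against 91.4 to 104 CPM in the other wild-type aortas.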

How the results depend on the processing

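No paired analysis was possible because the replicate numbers only follow the order of the samples. Few reads limit Ldhb, Pgk1 and Pfkm in B1b cells, with 0 to 44 a library, and 3 against 3 or 3 against 5 libraries limit the ratio tests. Few reads also limit Aldoc and its ratio to Aldoa in aortas, with 3 to 31 a library apart from cre replicate 4. Between B1b cells and aortas in cre, 8 enzymes passed as lower in all settings and with any library left out. Ldhb was among them, through its aorta counts alone. The all-gene median in cre was -0.12, and -0.26 with the size factors of DESeq2. In wild type, 7 to 8 passed as lower over the settings and with a library left out. Pfkl was the 1 that joined, with DESeq2 (adjusted p = 0.0454) and without aorta wild type replicate 1 (edgeR adjusted p = 0.048). These settings called 6164 of 14339 and 5603 of 14243 genes as lower, against 5796 of 14339 in the main fit. Causes of the changes that follow were not tested.

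In B1b cells, 1 enzyme in place of 0 passed as lower in cre with DESeq2 and without the count filter (Aldoa), and 0 to 1 with a library left out. These settings called more genes in general: DESeq2 called 63 of 11732 as lower and the fit without the filter 101 of 19348, against 26 of 11732 in the main fit. In aortas, 1 in place of 0 passed as higher with DESeq2 and in the fit of all 16 libraries (Tpi1). There DESeq2 called 127 of 13364 genes as higher and the fit of all 16 libraries 36 of 15091, against 2 of 13364 in the main fit. Between B1b cells and aortas in wild type, 1 in place of 2 passed as higher with the size factors of DESeq2, with DESeq2 and in the fit of all 16 libraries (Hk1 at 0.26, 0.26 and 0.36), and 1 to 2 with a library left out. Those 3 settings called 4698 of 14339, 4750 of 14339 and 5040 of 15091 genes as higher, against 5082 of 14339 in the main fit. In cre the count of enzymes passing as higher was 0 to 1 with a library left out. The sign turned for Aldoc in cre B1b cells against aortas with limma-voom (0.25) and for Hk1 there without the count filter (0.05), and for the interaction of Hk2 with DESeq2 or its size factors (0.04 in each).

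With a library left out, log2 fold changes that missed the threshold also turned sign. Between cre and wild-type B1b cells these ran from -0.28 to 0.18 for Aldoc, -0.09 to 0.11 for Hk1, -0.18 to 0.50 for Pfkm and -0.10 to 0.07 for Tpi1. Between B1b cells and aortas in cre they ran from -0.22 to 0.01 for Hk1 and -0.75 to 1.14 for Aldoc, and the interaction of Hk2 ran from -0.20 to 0.16.

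Without the 2 libraries of under 2000000 counts, the ratio differences between B1b cells and aortas were -2.42 in cre and -2.75 in wild type for Hk2 to Hk1, 4.02 and 4.37 for Pfkl to Pfkm, and 3.60 in wild type for Aldoc to Aldoa (exact permutation p = 0.0571, the smallest that 3 against 4 allow). For Ldhb to Ldha they were -8.49 in cre and -7.58 in wild type, and no p is given. Aldoc to Aldoa between cre and wild-type aortas was then 1.46 (exact permutation p = 0.0857). With all 16 libraries and the genotypes pooled, Aldoc to Aldoa differed by 3.03 between B1b cells and aortas (exact permutation p = 0.00125). With a library left out, these differences ran from -2.66 to -2.34 in cre and -3.02 to -2.75 in wild type for Hk2 to Hk1, from 3.53 to 4.13 and 3.97 to 4.37 for Pfkl to Pfkm, from -8.79 to -7.91 and -8.27 to -6.98 for Ldhb to Ldha, and from 2.03 to 2.96 and 3.58 to 3.87 for Aldoc to Aldoa. Between cre and wild-type aortas they ran from -0.25 to 0.11 for Pfkl to Pfkm, -0.06 to 0.28 for Ldhb to Ldha and 0.98 to 1.91 for Aldoc to Aldoa.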
